A study of Homo sapiens with 29 samples.

Results

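The 9 genes described here handle glucose and lactate at the entrance of the cell. SLC2A1 (GLUT1) and SLC2A2 (GLUT2) carry glucose across the membrane, HK1 and HK2 put a phosphate on it, and G6PC2 takes that phosphate off again. TXNIP holds back glucose uptake, LDHA and LDHB are the subunits that interconvert pyruvate and lactate, and SLC16A1 (MCT1) moves lactate and pyruvate through the membrane. They were taken by symbol from a table of 66025 gene entries, as genes of glucose sensing and genes that beta cells usually keep low. No level was required of them, but earlier results of these data were known at the choice. The values of LDHA were repeated by 1 further entry, and LDHA was counted 1 time. Of the 9 genes, 8 had enough reads for the tests, and HK2 did not.

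The cells were EndoC-βH1, an insulin-secreting human beta-cell line, kept for 10 days in medium that HEK293 cells, a human embryonic kidney line, had conditioned for 3 hours. The HEK293 cells stably overexpressed mutant CEL (MUT, 10 libraries), wild-type CEL (WT, 10 libraries) or the empty vector (EV, 9 libraries), and the media were filtered and brought to equal protein. CEL is carboxyl ester lipase, a digestive enzyme of the exocrine pancreas that is mutated in the inherited diabetes MODY8. Which mutation it was is not stated, and since CEL was overexpressed in the HEK293 cells, its level in these libraries does not check the labels. All libraries thus share the cell line and the exposure to HEK293 medium. Batches 3 and 2 held 3 libraries of each medium, and batch 1 held 4 MUT, 4 WT and 3 EV libraries. What the batches stand for is not given.

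Beta cells sense glucose by its metabolism. Glucose enters through a transporter and is phosphorylated at a rate that follows blood glucose, and G6PC2 works against that step. High-affinity hexokinases such as HK1 and HK2, the lactate dehydrogenase subunit LDHA and the carrier SLC16A1 are known as disallowed genes, which beta cells keep low so that insulin release does not answer to basal glucose or to circulating lactate. In human beta cells GLUT1 is thought to be the main carrier, and in rodents GLUT2. TXNIP binds thioredoxin and glucose transporters, and is induced by glucose through the carbohydrate response factors MLXIPL (ChREBP) and MLXIP (MondoA) with their partner MLX.

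The total per library was 28.7 to 40.2 M counts for MUT, 26.2 to 38.3 M for WT and 27 to 39.5 M for EV. A beta-cell marker list had 11 of 11 genes above 1 CPM (counts per 1 M counts of a library, with the library total scaled by TMM) in the median library, whereas 1 of 7 acinar markers did, the carboxypeptidase CPA1 at 21.3 to 45.6 CPM, and the digestive enzymes PNLIP and AMY2A were at 0 in all 29. Of 7 HEK293 markers 2 passed that level, and PAX2 did not exceed 0.0319 CPM. The libraries of the same batch and medium differed by more than sampling noise in all 33 pairs. The labels do not state separate cultures for replicates, so the p-values cover the spread among the libraries as made, and that spread may be technical. Each medium had 1 set of libraries in a batch, so a response to the medium and a difference between sets cannot be told apart within a batch.

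The levels of the genes spanned more than 3 orders of magnitude on a per-length scale. Per kilobase of merged exon, G6PC2 averaged 66.6 CPM, LDHB 55.3, SLC2A1 18.9, TXNIP 15.8, LDHA 15.7, SLC16A1 4.73 and SLC2A2 1.28 CPM over the 29 libraries. The hexokinases lay far lower, at 0.0324 CPM per kilobase for HK1 and 0.02 for HK2. This order, the first place included, depends on the length used. With the median transcript length LDHB came out highest at 238 CPM per kilobase, ahead of G6PC2 at 171. LDHA at 133 passed TXNIP at 41.8, while SLC2A2, HK1 and HK2 remained the 3 lowest. Transcripts of SLC2A1 were more abundant than those of SLC2A2 by either length.

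**Figure D1:**
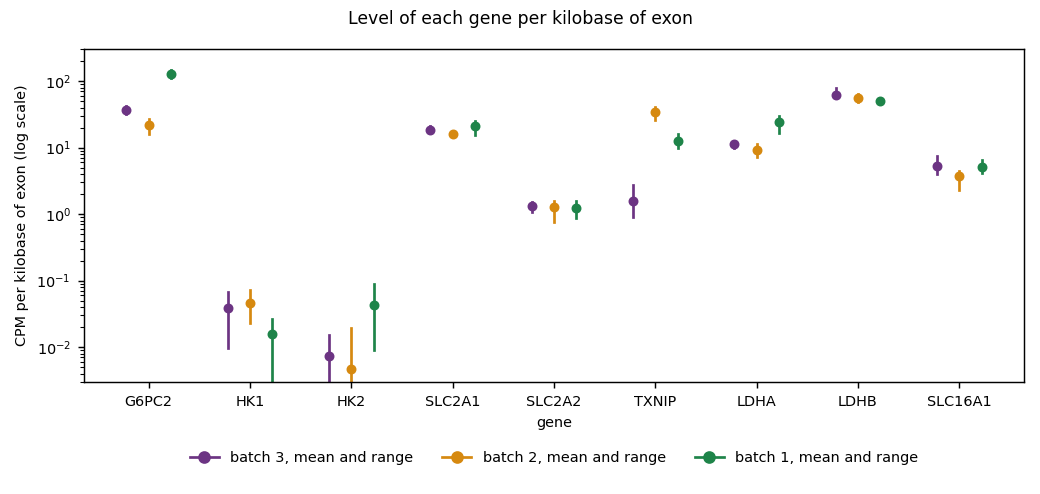
Level of each of the 9 genes in CPM per kilobase of merged exon (log axis), with the mean and the range of libraries in batch 3 (9 libraries), batch 2 (9) and batch 1 (11). A range that reaches the lower edge includes libraries at 0. HK1 and HK2 lie below 0.1 CPM per kilobase, and TXNIP differs most between batches.

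The batches differed in most of these genes, and the media in few of them once the batches were pooled. Between batches 6 of 8 tested genes differed for batch 3 against batch 1, 6 for batch 3 against batch 2 and 7 for batch 2 against batch 1 (edgeR quasi-likelihood test with medium in the model, Benjamini-Hochberg adjusted p under 0.05, which is what a call means here). Of all 21259 entries 56.6%, 44.5% and 66.7% were called in these comparisons. The shares among the 8 tested genes were above these, but so few genes measure a share poorly, and no difference was tested. By direction the calls were 2 higher and 4 lower for batch 3 against batch 1 (29.9% and 26.7% of all entries), 5 and 1 for batch 3 against batch 2 (22.2% and 22.3%), and 3 and 4 for batch 2 against batch 1 (33.7% and 33.0%). Both counts against batch 1 include HK1 as higher, a gene that passed the low-count filter only through batch 2, where it is high. Without batch 2, HK1 was not tested and 5 of 7 genes were called for batch 3 against batch 1. With a stricter low-count filter, which left HK1 out, 5 of 7 were called for batch 2 against batch 1, LDHB not among them (adjusted p = 0.11). With batch in the model, 0 of 8 were called for MUT against EV, where 5.20% of all entries were (2.95% higher, 2.25% lower), 1 for MUT against WT (0.884% of entries, 0.522% higher and 0.362% lower), and 0 for WT against EV (0.315%). At an unadjusted p under 0.05 the counts were 1, 2 and 3, and DESeq2 called 0, 2 and 1. MUT against EV and WT against EV share the EV libraries.

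The effect of the medium differed between batches for SLC2A2, G6PC2, LDHB and TXNIP. These were the 4 of 8 that a joint test of medium by batch called, beside 49.2% of all entries. For the pairs of media the test called 3 for MUT against EV (44.0% of entries), 4 for MUT against WT (28.4%) and 2 for WT against EV (24.1%). Fitted alone, batch 2 gave 4 calls for MUT against EV (47.8%), 4 for MUT against WT (33.1%) and 4 for WT against EV (38.9%). These were 1 higher and 3 lower for MUT against EV (24.1% and 23.8% of entries), 2 and 2 for MUT against WT (16.8% and 16.4%), and 1 and 3 for WT against EV (19.6% and 19.3%). Batch 3 gave 0, 1 and 0 in the same order, beside 0.0490%, 1.22% and 0.00981% of entries. Batch 1 gave 0 in each, beside 1.40%, 0.277% and 0.0143%, with 2, 3 and 2 genes at an unadjusted p under 0.05 and 2, 1 and 1 by DESeq2. In batch 3 the 2 comparisons with 0 calls had 2 genes for MUT against EV and 1 for WT against EV at an unadjusted p under 0.05, and 0 in either by DESeq2. Batch 2 tested 8 of the 9 genes, all but HK2, batch 3 tested 7, all but the 2 hexokinases, and batch 1 tested 8, all but HK1.

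**Figure D2:**
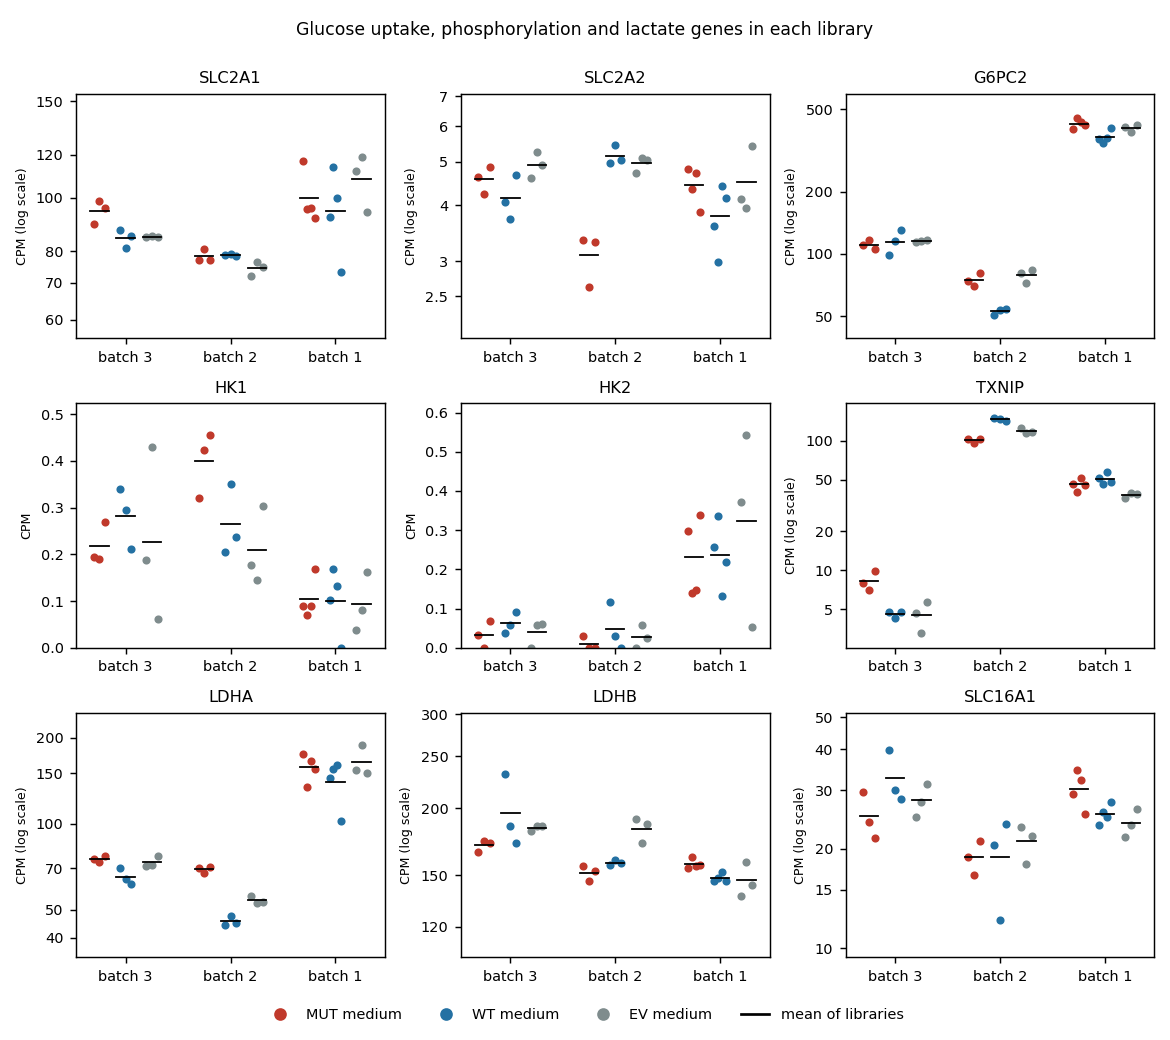
CPM of each gene in each of the 29 libraries, by batch and medium; HK1 and HK2 are on linear axes and the others on log axes. Points are libraries and bars their means. TXNIP, G6PC2 and LDHA separate by batch more than by medium, and SLC2A2 is low in the MUT libraries of batch 2.

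TXNIP (chr1:145992435-145996600, minus strand, GRCh38) had the largest fold difference between batch means of the 9. Its promoter is given since TXNIP moved across batches together with another target of the same regulators, ARRDC4, whose product is a related arrestin that also restrains glucose uptake. The windows run from 250 bases before to 50 after the start site in RefSeq (GRCh38.p14), TXNIP at chr1:145996530-145996829 on the minus strand (the first of 2 start sites listed) and ARRDC4 at chr15:97960453-97960752 on the plus strand. Capitals mark a paired E-box of the carbohydrate response element type, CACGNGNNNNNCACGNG, in TXNIP, and an E-box, CACGTG, in ARRDC4.
TXNIP: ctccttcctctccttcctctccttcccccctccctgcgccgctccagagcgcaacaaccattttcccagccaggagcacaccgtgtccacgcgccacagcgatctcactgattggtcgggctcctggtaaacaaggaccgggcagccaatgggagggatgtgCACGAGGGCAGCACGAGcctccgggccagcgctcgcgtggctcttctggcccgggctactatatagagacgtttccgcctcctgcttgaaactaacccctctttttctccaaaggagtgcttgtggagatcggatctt
ARRDC4: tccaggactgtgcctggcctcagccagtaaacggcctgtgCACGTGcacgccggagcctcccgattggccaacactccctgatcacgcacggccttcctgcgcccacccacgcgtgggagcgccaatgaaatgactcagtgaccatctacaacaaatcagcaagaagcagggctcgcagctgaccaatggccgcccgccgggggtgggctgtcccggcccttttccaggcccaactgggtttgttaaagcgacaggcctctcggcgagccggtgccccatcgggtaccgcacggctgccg
The TXNIP match lies 88 bases before the start site, and on either strand that paired motif is in 20 of 35116 promoter windows, or 0.057%. CACGTG, a form that either arm of the paired motif can take, is in 2548 windows, or 7.26%. The ARRDC4 window holds no match to the paired motif and the TXNIP window none to CACGTG, which says only that these letters are not in these windows. CACGTG also has 2 matches in the first listed LDHA window and 2 in the second HK2 window. LDHA and HK2 were highest in batch 1, whereas TXNIP and ARRDC4 were highest in batch 2. Whether these motifs bear on the levels was not tested.

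In batch 3 TXNIP had 8.01, 6.98 and 9.82 CPM in MUT libraries, 4.78, 4.31 and 4.76 in WT, and 4.65, 3.27 and 5.69 in EV. The values of batch 2 were 104, 95.7 and 104 CPM in MUT, 150, 149 and 143 in WT, and 125, 115 and 118 in EV. In batch 1 TXNIP had 46.1, 40.4, 51.7 and 46 CPM in MUT, 51.3, 46.3, 57.6 and 48.2 in WT, and 36.3, 39.6 and 39 in EV. The batches did not overlap at all, with batch 2 highest and batch 3 lowest, and the order of the media changed from batch to batch: MUT was highest in batch 3 and lowest in batch 2, without overlap in either. TXNIP was 21.3-fold lower in batch 3 than in batch 2 (log2 fold change -4.41 ± 0.15 SE, adjusted p = 3.3e-18), the change of largest size among all 21259 entries tested in that comparison. It was 7.79-fold lower in batch 3 than in batch 1 (-2.96 ± 0.14, adjusted p = 7.4e-16) and 2.73-fold higher in batch 2 than in batch 1 (1.45 ± 0.11, adjusted p = 1.5e-11).

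The medium effects on TXNIP ran in opposite directions. In batch 2 it was lower in MUT than in WT medium (-0.53 ± 0.04, adjusted p = 9.7e-08) and than in EV medium (-0.23 ± 0.05, adjusted p = 0.00036), and higher in WT than in EV (0.30 ± 0.04, adjusted p = 4.1e-05). In batch 3 it was higher in MUT than in WT (0.83 ± 0.18, adjusted p = 0.046), a call that was lost without any of 6 of the 9 libraries of that batch, with adjusted p-values of 0.063 to 0.18. The difference from EV was of like size there and was not called in the main edgeR fit (0.87 ± 0.18, adjusted p = 0.11). It was called by edgeR with no low-count filter (adjusted p = 8.4e-05) and without WT batch 3 replicate 1 (0.04). In batch 1 the log2 differences were -0.16 ± 0.08 for MUT against WT, 0.25 ± 0.08 for MUT against EV and 0.41 ± 0.08 for WT against EV, none called by edgeR. DESeq2 called MUT against EV (adjusted p = 0.038) and WT against EV (0.003) there, and the last was also called by edgeR with no low-count filter (0.033). The difference between batches passed for MUT against WT (adjusted p = 8.4e-06) and for MUT against EV (5.2e-05), and was not called for WT against EV (0.31). Pooled over batches the values were -0.07 ± 0.12, 0.22 ± 0.13 and 0.30 ± 0.12, none called. Without batch 3 TXNIP was called in 2 of these comparisons, lower in MUT than in WT (-0.31, adjusted p = 0.018) and higher in WT than in EV (0.34, adjusted p = 0.033).

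The gene whose level across the 29 libraries followed TXNIP most closely by Pearson correlation of log2 CPM was KLF10, a transcription factor induced by glucose and TGF-beta (r = 0.97), then ALOX15, a lipoxygenase (0.968), and ARRDC4 (0.963), among 12301 other entries with at least 5 CPM. By Spearman correlation ARRDC4 came first (0.985). The libraries share 3 batches and their depth. After removal of the mean of each batch and medium, r was 0.24 for KLF10, -0.17 for ALOX15 and 0.56 for ARRDC4. ARRDC4 averaged 36.2 ± 2.02 CPM in batch 3 (SD, n = 9), 88.7 ± 13.6 in batch 2 (n = 9) and 57.3 ± 5.03 in batch 1 (n = 11), the same order as TXNIP over a smaller range. In batch 2 it stood at 74.4 ± 3.51 CPM in MUT, 105 ± 4.64 in WT and 87.1 ± 4.02 in EV (n = 3 each), again in the order of TXNIP there. ARRDC4 was lower in MUT than in WT in that batch (-0.48 ± 0.05, adjusted p = 7.9e-07) and higher in WT than in EV (0.26 ± 0.05, adjusted p = 0.00035). In batch 3, where TXNIP was highest in MUT, ARRDC4 averaged 38 ± 0.432 CPM in MUT, 35 ± 1.37 in WT and 35.6 ± 2.55 in EV.

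**Figure D3:**
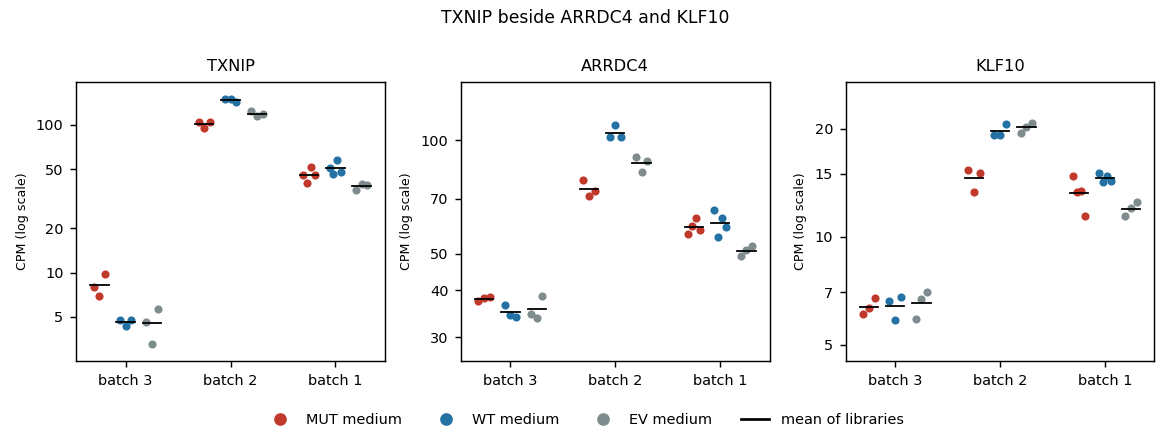
CPM of TXNIP, ARRDC4 and KLF10 (log axes) in each library, by batch and medium. Points are libraries and bars their means. All 3 genes are lowest in batch 3 and highest in batch 2, and TXNIP spans the widest range.

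Of the other genes of the MLX and TXNIP circuit, a list of 15 with 14 tested, 9 were called for batch 3 against batch 2, 1 higher and 8 lower, with a median log2 change of -0.12 beside 0.01 over all entries, of which 44.5% were called. KLF10 (-1.49 ± 0.07), ARRDC4 (-1.29 ± 0.06) and DBP, a clock output factor (-0.88 ± 0.10), had the smallest p. All 14 were called for batch 3 against batch 1 (6 higher, 8 lower, beside 56.6% of entries) and for batch 2 against batch 1 (9 higher, 5 lower, beside 66.7%). BHLHE40, a repressor linked to clock and hypoxia, had the smallest p for batch 2 against batch 1, with 4.55 ± 0.447 CPM in batch 3, 2.95 ± 0.367 in batch 2 and 17.5 ± 6.31 in batch 1. Within batch 2, 9 of 14 were called for MUT against EV (3 higher, 6 lower, median -0.19 beside 0 over all entries, of which 47.8% were called). ARRDC3, an arrestin relative of TXNIP, averaged 23.5 ± 0.436 CPM in MUT, 29.2 ± 2.95 in WT and 64 ± 3.06 in EV of that batch, so it did not follow the TXNIP order, which had WT highest. TXN, the thioredoxin that TXNIP binds, was lower in MUT than in EV (-0.38 ± 0.05) and in WT than in EV (-0.44 ± 0.05). Pooled over batches, BHLHE40 was the only one of the 14 called, lower in MUT than in EV (-0.46 ± 0.13, adjusted p = 0.036), beside 5.20% of all entries.

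The 2 glucose transporters differed in what they varied with. SLC2A1 (chr1:42925375-42959176, minus strand) changed with batch and hardly with medium. SLC2A1 had 89.8, 98.7 and 95.7 CPM in MUT libraries, 87.4, 81 and 85.2 in WT, and 84.8, 85.1 and 85 in EV of batch 3. Batch 2 had 77.1, 80.6 and 77 CPM in MUT, 78.6, 79 and 78.4 in WT, and 72.1, 76.3 and 74.7 in EV. Batch 1 had 117, 95.6, 95.8 and 91.9 CPM in MUT, 92.2, 114, 99.8 and 73.4 in WT, and 112, 119 and 94.2 in EV. All libraries of batch 3 lay above those of batch 2, and batch 1, at 73.4 to 119 CPM, overlapped both. The log2 difference was 0.19 ± 0.06 for batch 3 against batch 2 (adjusted p = 0.012), -0.19 ± 0.06 for batch 3 against batch 1 (adjusted p = 0.0067) and -0.38 ± 0.06 for batch 2 against batch 1 (adjusted p = 1.3e-06). The first was lost with summed profiles (adjusted p = 0.17), voom with quality weights (0.18) and voom with an estimated correlation (0.19), and the second with summed profiles (0.096) and voom with an estimated correlation (0.16). In batch 3 every MUT library exceeded every WT and EV library, and neither difference was called (0.16 ± 0.05 in both, adjusted p = 0.13 against WT and 0.20 against EV).

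SLC2A2 (chr3:170996348-171026750, minus strand) did the reverse: its level did not differ detectably between batches, and it was low in 1 medium of 1 batch. SLC2A2 had 4.62, 4.24 and 4.86 CPM in MUT, 4.07, 3.72 and 4.67 in WT, and 4.59, 5.25 and 4.93 in EV of batch 3. Levels in batch 2 were 3.35, 2.62 and 3.31 CPM in MUT, 4.97, 5.45 and 5.04 in WT, and 4.72, 5.10 and 5.05 in EV. Those of batch 1 were 4.82, 4.34, 4.72 and 3.86 CPM in MUT, 3.59, 2.99, 4.41 and 4.14 in WT, and 4.12, 3.95 and 5.42 in EV. The 3 MUT libraries of batch 2 lay below all others of that batch, while in batches 3 and 1 the media overlapped. In batch 2 SLC2A2 was lower in MUT than in WT (-0.73 ± 0.11, adjusted p = 1e-04) and than in EV (-0.68 ± 0.11, adjusted p = 1e-04), which is 1.66-fold and 1.60-fold. In batch 3 the same differences were 0.13 ± 0.12 and -0.11 ± 0.12, and in batch 1 they were 0.20 ± 0.14 and -0.04 ± 0.15. The difference between batches passed for both pairs (adjusted p = 0.00024 for MUT against WT and 0.0088 for MUT against EV). Medium by batch held 51.1% of the variance of its log2 level and batch 3.76%, against 1.68% and 97.3% for TXNIP.

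Among other glucose carriers, a list of 14 with 10 tested, 1 was called pooled for MUT against EV, beside 5.20% of all entries: SLC2A11, lower at -0.23 ± 0.05 (adjusted p = 0.02). Within batch 2, 5 of 9 were called for MUT against EV, 1 higher and 4 lower, with a median of -0.37 beside 0 over all entries, of which 47.8% were called. SLC2A13, a carrier of inositol, averaged 70.8 ± 2.14 CPM in MUT, 62.2 ± 2.64 in WT and 45.4 ± 0.737 in EV of that batch. The sodium-glucose carrier SLC5A1 stood lower in MUT, at 2.05 ± 0.335 CPM, than in WT (3.82 ± 0.231) and EV (3.62 ± 0.338). In that batch 4 of 9 were called for MUT against WT (1 higher, 3 lower, beside 33.1% of entries) and 5 of 9 for WT against EV (3 higher, 2 lower, beside 38.9%).

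HK1 and HK2, the hexokinases that beta cells keep low, were near the limit of detection. HK1 (chr10:69269984-69401884, plus strand) had 201 counts and HK2 (chr2:74833981-74893359, plus strand) 117 counts over 29 libraries of 26.2 to 40.2 M counts. HK1 had 0.191 to 0.27 CPM in MUT, 0.212 to 0.339 in WT and 0.0608 to 0.431 in EV of batch 3. The corresponding ranges were 0.32 to 0.455, 0.206 to 0.351 and 0.145 to 0.304 CPM in batch 2, and 0.0701 to 0.169, 0 to 0.168 and 0.0371 to 0.163 in batch 1. The media overlapped in every batch except that all MUT libraries of batch 2 exceeded those of EV there (0.91 ± 0.39, adjusted p = 0.063). The pooled model gave log2 differences of 1.24 ± 0.33 for batch 3 against batch 1 (adjusted p = 0.0016) and 1.5 ± 0.31 for batch 2 against batch 1 (adjusted p = 9.4e-05), at counts of 0 to 18 per library. HK1 did not pass the low-count filter in batch 3 or in batch 1 alone, nor without batch 2, so it entered the model through batch 2, where it is high. Its call for batch 2 against batch 1 draws on the values that let it in, and is given no weight. With no filter the difference of batch 3 from batch 1 was 1.21 (adjusted p = 0.0031), and with voom and an estimated correlation between libraries it was not called (adjusted p = 0.13).

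HK2 went the other way. It averaged 0.0451 CPM in batch 3, 0.0288 in batch 2 and 0.258 in batch 1, where 95 of its 117 counts fell. A count of 3 corresponds to 0.0758 to 0.113 CPM in these libraries, so most libraries of batches 3 and 2 were at or below that floor. Counting error alone is wide at such counts. HK2 did not pass the low-count filter over all libraries, so the pooled model holds no test of it between batches. Some alternative fits, such as those of batches 2 and 1 only, with no filter or with a library left out, did test HK2. It passes a filter only through batch 1, where it is high, so their calls are not counted here. They enter only the closing ranges with each library left out. In batch 1, where HK2 passed the filter, the log2 differences were -0.46 ± 0.55 for MUT against EV, -0.01 ± 0.54 for MUT against WT and -0.45 ± 0.54 for WT against EV, none called.

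G6PC2 (chr2:168901240-168910000, plus strand), the islet glucose-6-phosphatase subunit, followed the batch almost entirely. In batch 3 it had 110, 117 and 106 CPM in MUT libraries, 99.4, 115 and 130 in WT, and 114, 116 and 117 in EV. G6PC2 in batch 2 had 74.4, 69.8 and 80.8 CPM in MUT, 50.9, 53.4 and 54.3 in WT, and 81.1, 72.3 and 84.1 in EV. Its batch 1 values were 401, 455, 432 and 417 CPM in MUT, 357, 344, 364 and 406 in WT, and 410, 386 and 421 in EV. No library of any batch overlapped another batch, batch 1 being highest and batch 2 lowest. It was 5.86-fold lower in batch 2 than in batch 1 (-2.55 ± 0.07, adjusted p = 1.4e-22), 3.51-fold lower in batch 3 than in batch 1 (-1.81 ± 0.07, adjusted p = 1.3e-19) and 1.67-fold higher in batch 3 than in batch 2 (0.74 ± 0.07, adjusted p = 4.9e-10). Batch held 97.5% of the variance of its log2 level.

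The WT libraries stood out from both other media in G6PC2. In batch 2 all 3 WT libraries lay below all others of that batch, with log2 differences of 0.51 ± 0.06 for MUT against WT (adjusted p = 1.1e-05) and -0.59 ± 0.06 for WT against EV (adjusted p = 1.8e-06). In batch 1 the differences had the same signs, 0.19 ± 0.05 and -0.14 ± 0.06, and were not called in the main edgeR fit (adjusted p = 0.093 and 0.44). The first of these was called by DESeq2 (adjusted p = 0.017). In edgeR it was called with no low-count filter (0.041) and without MUT batch 1 replicate 4 (0.043). In batch 3 the same 2 differences were -0.05 ± 0.08 and -0.01 ± 0.08. The difference between batches passed for both pairs (adjusted p = 0.001 for MUT against WT and 0.00033 for WT against EV). Pooled over batches, 0.21 ± 0.06 and -0.23 ± 0.06 missed the threshold in edgeR (adjusted p = 0.094 in both) and passed it in DESeq2 at the same size (adjusted p = 0.036 and 0.031). In edgeR both passed without batch 3, at 0.33 (adjusted p = 0.0078) and -0.34 (adjusted p = 0.023). Without WT batch 3 replicate 3 alone both passed as well, at 0.26 (adjusted p = 0.025) and -0.28 (adjusted p = 0.026).

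Of the list of other hexokinase and glucose-6-phosphatase genes, 5 of 6 tested were called for batch 3 against batch 1 (3 higher, 2 lower, beside 56.6% of entries), 0 for batch 3 against batch 2 (44.5%) and 5 for batch 2 against batch 1 (3 higher, 2 lower, beside 66.7%). At an unadjusted p under 0.05 the count for batch 3 against batch 2 was 1 (SLC37A4), and no other tool was run on this list. In batch 2, 2 of 6 were called for MUT against EV, both lower, 3 for MUT against WT, all lower, and 3 for WT against EV (2 higher, 1 lower), beside 47.8%, 33.1% and 38.9% of all entries. SLC37A4, the carrier that brings glucose-6-phosphate to the phosphatase in the endoplasmic reticulum, was called pooled for MUT against EV (-0.21 ± 0.06, adjusted p = 0.041). It was the only 1 of the 6 called there, beside 5.20% of all entries. In batch 2 it averaged 113 ± 3.79 CPM in MUT, 149 ± 2.27 in WT and 176 ± 12 in EV. HKDC1, a further hexokinase of low level, averaged 0.244 ± 0.0811 CPM in MUT, 0.727 ± 0.0598 in WT and 0.223 ± 0.0759 in EV of batch 2, and was higher in WT than in EV there (1.69 ± 0.34, adjusted p = 0.00076).

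LDHA (chr11:18394388-18408425, plus strand), which favours lactate formation, gave the only pooled call among the 9 genes between media. In batch 3 it had 75, 73.5 and 77.2 CPM in MUT libraries, 70, 64.3 and 61.7 in WT, and 71.1, 71.8 and 77.2 in EV. The libraries of batch 2 had 69.9, 67.3 and 70.7 CPM in MUT, 44.4, 47.7 and 45 in WT, and 56.1, 52.8 and 53.1 in EV. The libraries of batch 1 had 175, 134, 166 and 155 CPM in MUT, 145, 155, 160 and 102 in WT, and 154, 188 and 150 in EV. In batch 2 the media separated completely with MUT highest and WT lowest, in batch 3 every MUT library exceeded every WT library, and in batch 1 the media overlapped. LDHA was higher in MUT than in WT over all libraries (0.31 ± 0.07, 1.24-fold, adjusted p = 0.031), with 0.20 ± 0.06 in batch 3, 0.61 ± 0.05 in batch 2 and 0.15 ± 0.15 in batch 1 fitted alone. Of these only the value of batch 2 was called in the main edgeR fit (adjusted p = 2.3e-08). The value of batch 3 (adjusted p = 0.097) was called by DESeq2 (0.03). In edgeR it was called with no low-count filter (0.032) and without WT batch 3 replicate 1 (0.014). Without batch 2 the difference was 0.18 (adjusted p = 0.31), and without any of 8 single libraries, MUT batch 1 replicate 1, the 6 MUT and WT libraries of batch 2 and WT batch 3 replicate 2, the adjusted p was 0.052 to 0.083. The call was also lost, at differences of 0.30 to 0.33, with only the MUT and WT libraries (adjusted p = 0.056), no low-count filter (0.1), voom with an estimated correlation (0.88) and summed profiles (1).

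In batch 2 LDHA also passed against EV, higher in MUT (0.36 ± 0.04, adjusted p = 3.6e-06) and lower in WT (-0.25 ± 0.05, adjusted p = 0.00038). A change of the medium effect from batch to batch was not called for LDHA (joint adjusted p = 0.11, and 0.083 for MUT against WT). Between batches it was 2.75-fold lower in batch 2 than in batch 1 (-1.46 ± 0.07, adjusted p = 1.7e-16) and 2.15-fold lower in batch 3 than in batch 1 (-1.11 ± 0.07, adjusted p = 1.2e-13). It was 1.28-fold higher in batch 3 than in batch 2 (0.35 ± 0.07, adjusted p = 0.00034), where the batches overlapped. LDHA and LDHB have processed pseudogenes whose reads the quantification may share with them, so their levels carry that uncertainty.

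LDHB (chr12:21635342-21757857, minus strand), the subunit that favours pyruvate, moved little and not with LDHA. In batch 3 it had 166, 174 and 172 CPM in MUT libraries, 232, 185 and 172 in WT, and 181, 185 and 185 in EV. LDHB in batch 2 had 156, 146 and 153 CPM in MUT, 157, 160 and 158 in WT, and 191, 172 and 187 in EV. LDHB in batch 1 had 155, 162, 156 and 157 CPM in MUT, 146, 148, 152 and 146 in WT, and 137, 159 and 144 in EV. The EV libraries were highest in batch 2, where LDHB was lower in MUT than in EV (-0.27 ± 0.04, adjusted p = 5.9e-05) and in WT than in EV (-0.22 ± 0.04, adjusted p = 0.00072). In batch 1 the MUT libraries were the higher ones on average (0.08 ± 0.05 against EV, not called), and the medium by batch test passed for all 3 pairs (adjusted p = 0.0043 for MUT against EV, 0.033 for MUT against WT and 0.034 for WT against EV). Batch 3 exceeded batch 1 (0.28 ± 0.05, adjusted p = 2.7e-05) and batch 2 (0.16 ± 0.05, adjusted p = 0.015), with overlap. The call against batch 2 was lost with summed profiles (adjusted p = 0.31) and with voom and an estimated correlation (0.14). The call for batch 2 against batch 1 (0.12 ± 0.05, adjusted p = 0.046) was lost in 35 of 42 alternatives.

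Per kilobase, LDHA over LDHB was 0.188 ± 0.0238 in batch 3 (SD, n = 9), 0.166 ± 0.0399 in batch 2 (n = 9) and 0.486 ± 0.067 in batch 1 (n = 11). In batch 2 it was 0.219 ± 0.00374 in MUT, 0.138 ± 0.004 in WT and 0.142 ± 0.00554 in EV (n = 3 each), and the lowest MUT library, 0.215, lay above the highest of both other media, 0.147, while WT and EV overlapped. In batch 3 it was 0.212 ± 0.00776 in MUT, 0.161 ± 0.0145 in WT and 0.192 ± 0.00752 in EV, and the same 3 means in batch 1 were 0.481 ± 0.0624 (n = 4), 0.455 ± 0.0808 (n = 4) and 0.536 ± 0.0339 (n = 3).

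SLC16A1 (chr1:112911847-112957013, minus strand) was low in batch 2. It had 21.6 to 29.7 CPM in MUT, 28.3 to 39.6 in WT and 25 to 31.4 in EV of batch 3, and 16.6 to 21.1, 12.2 to 23.7 and 18 to 23.3 CPM in batch 2. In batch 1 it had 29.2, 34.5, 32.3 and 25.5 CPM in MUT, 23.6, 25.8, 25 and 27.6 in WT, and 21.7, 23.6 and 26.3 in EV. The MUT libraries of batch 1 were mostly the higher ones, with overlap, and the media overlapped in batches 3 and 2 too. It was higher in batch 3 than in batch 2 (0.55 ± 0.11, adjusted p = 0.00033) and lower in batch 2 than in batch 1 (-0.45 ± 0.11, adjusted p = 0.00074). In batch 1 the difference of MUT from EV was 0.32 ± 0.09 and was not called (adjusted p = 0.071), whereas DESeq2 called it (adjusted p = 0.015).

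Among 15 other genes of lactate and monocarboxylate handling, 10 were tested. LDHD, which oxidizes D-lactate, was the only one called pooled for MUT against EV (-0.55 ± 0.16, adjusted p = 0.043), beside 5.20% of all entries. It averaged 0.617 ± 0.0631 CPM in MUT, 1.29 ± 0.265 in WT and 1.3 ± 0.162 in EV of batch 2. In that batch 3 of 10 were called for MUT against EV, all lower, with a median of -0.19 beside 0 over all entries, a smaller share than the 47.8% of all entries called. SLC16A3 (MCT4), a carrier that exports lactate, averaged 15.5 ± 1.06 CPM in MUT, 23.4 ± 0.376 in WT and 20.9 ± 1.58 in EV. EMB, which escorts monocarboxylate carriers to the membrane, was lower in batch 3 (60.7 ± 4.48 CPM) and batch 2 (58.5 ± 3.99) than in batch 1 (109 ± 12.2), as was SLC16A7 (MCT2) at 2.26 ± 0.331, 1.5 ± 0.311 and 5.47 ± 0.939 CPM.

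**Figure D4:**
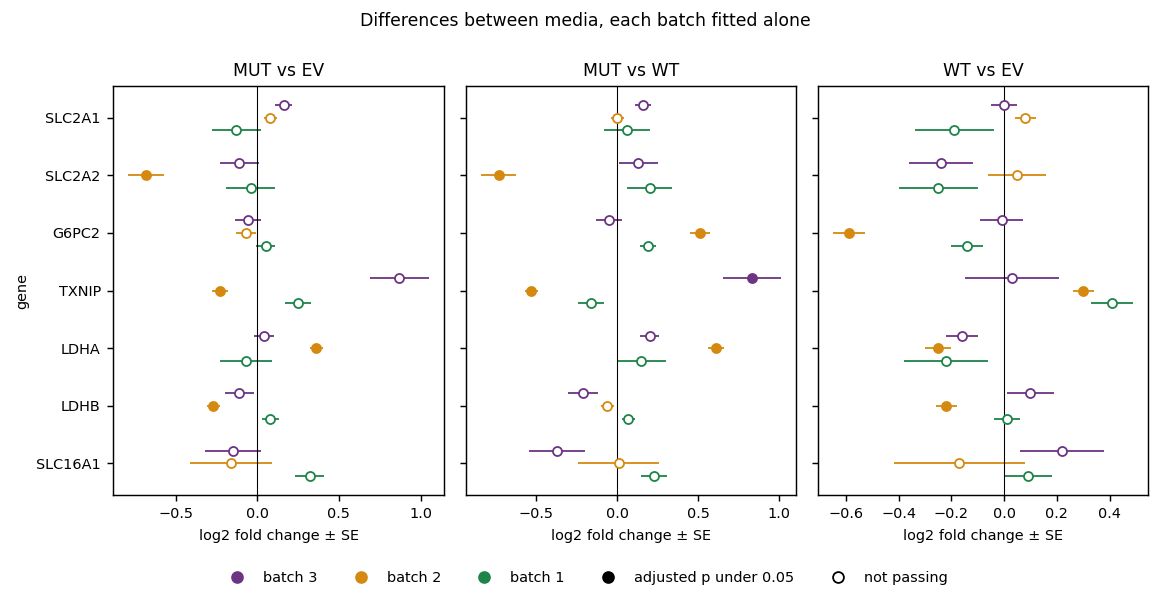
Log2 fold changes between media with each batch fitted alone (edgeR), for MUT against EV, MUT against WT and WT against EV; bars are standard errors and filled points passed an adjusted p under 0.05. Calls lie in batch 2 apart from TXNIP in batch 3, where MUT against WT has the opposite sign to batch 2.

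Of 22 listed enzymes of glycolysis, which follows these steps, 21 were tested, and 15 were called for MUT against EV in batch 2, 3 higher and 12 lower, with a median of -0.19 beside 0 over all entries. In the same comparison 47.8% of all entries were called, 24.1% higher and 23.8% lower. The liver-type pyruvate kinase PKLR averaged 7.77 ± 0.175 CPM in MUT, 12.3 ± 0.253 in WT and 18.6 ± 0.661 in EV. The phosphofructokinase PFKP averaged 28.5 ± 2.95, 41 ± 1.06 and 50.7 ± 1.13 CPM in the same order, and glucose-6-phosphate isomerase (GPI) 141 ± 5.13, 157 ± 4.76 and 206 ± 5.45. For MUT against WT 11 were called (2 higher, 9 lower, beside 33.1% of entries) and for WT against EV 13 (4 higher, 9 lower, beside 38.9%). Pooled over batches 2 were called for MUT against EV, beside 5.20% of all entries: ENO3 (-0.21 ± 0.06, adjusted p = 0.033) and PFKL (-0.30 ± 0.09, adjusted p = 0.043). MUT against WT had 1, ENO3 (-0.27 ± 0.05, adjusted p = 0.016), beside 0.884%. WT against EV had 0, beside 0.315%, with 7 at an unadjusted p under 0.05. In batch 3 alone edgeR called 0 of 20 for each pair of media, with 2 for MUT against EV, 7 for MUT against WT and 2 for WT against EV at an unadjusted p under 0.05. In batch 1 alone it called 0 of 21 for each pair, with 3, 3 and 1 at that level. Of all entries at most 1.22% were called in any comparison of batch 3 alone and at most 1.40% in batch 1 alone.

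LDHA is also a target of the hypoxia factors, and a list of 20 hypoxia genes was read beside it. Of 17 tested in batch 2, 11 were called for MUT against EV, 10 higher and 1 lower, with a median of 0.23 beside 0, where 47.8% of all entries were called (24.1% higher, 23.8% lower). EPAS1, a hypoxia-inducible factor subunit, averaged 75.7 ± 1.89 CPM in MUT, 87.2 ± 2.05 in WT and 48.7 ± 1.31 in EV, and DDIT4, an inhibitor of mTOR signalling, 19.5 ± 0.187, 36 ± 1.70 and 11.1 ± 0.0979. For MUT against WT 5 of the 17 were called there, 3 higher and 2 lower, beside 33.1% of entries. For WT against EV 6 of the 17 were called, 4 higher and 2 lower, beside 38.9% of entries, while LDHA was lower in WT (-0.25 ± 0.05). For batch 3 against batch 1, 15 of 18 were called, 3 higher and 12 lower, with a median of -0.17 beside 0, where 56.6% of entries were called (29.9% higher, 26.7% lower). For batch 2 against batch 1, where LDHA fell most, 7 of 18 were called, 2 higher and 5 lower (median -0.03, beside 66.7% of entries). For batch 3 against batch 2 there were 8, 2 higher and 6 lower (median -0.1, beside 44.5%), while LDHA was higher in batch 3 (0.35 ± 0.07). NDRG1 averaged 15.5 ± 2.33 CPM in batch 3, 28.7 ± 2.44 in batch 2 and 33.9 ± 8.39 in batch 1. Pooled, only EGLN1, an oxygen-sensing hydroxylase, was called for MUT against EV (0.19 ± 0.06, adjusted p = 0.044), beside 5.20% of all entries.

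Pyruvate entry into mitochondria and the NADH shuttles, 23 genes all tested, gave 2 pooled calls for MUT against EV, beside 5.20% of all entries (2.95% higher, 2.25% lower). They were GOT1 (0.13 ± 0.04, adjusted p = 0.039) and PDHB (0.12 ± 0.04, adjusted p = 0.041), both higher. Between batches 20 were called for batch 3 against batch 1 (16 higher, 4 lower, median 0.22 beside 0), where 56.6% of all entries were (29.9% higher, 26.7% lower). GPD1, the cytosolic enzyme of the glycerol phosphate shuttle, averaged 104 ± 3.29 CPM in batch 3, 118 ± 15.7 in batch 2 and 56.1 ± 2.48 in batch 1. PDK4, which switches pyruvate dehydrogenase off, averaged 1.64 ± 0.219, 4.03 ± 0.618 and 6.18 ± 1.25 CPM in that order.

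Other genes known as disallowed in beta cells were tested for 14 of 20. Pooled, 1 was called as higher in each comparison. These were LMO4 for MUT against EV (0.32 ± 0.07, adjusted p = 0.023), CAT for MUT against WT (0.12 ± 0.03, adjusted p = 0.046) and CXCL12 for WT against EV (0.50 ± 0.11, adjusted p = 0.04). Of all entries 5.20%, 0.884% and 0.315% were called in that order. Within batch 2, 10 of 14 were called for MUT against EV (4 higher, 6 lower, beside 47.8% of entries). There were 8 for MUT against WT (2 higher, 6 lower, beside 33.1%) and 9 for WT against EV (6 higher, 3 lower, beside 38.9%). CXCL12 averaged 89.3 ± 3.67 CPM in MUT, 187 ± 0.735 in WT and 94.1 ± 2.73 in EV of batch 2. For batch 3 against batch 1, 11 were called (8 higher, 3 lower, median 0.21 beside 0), where 56.6% of all entries were.

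Across libraries G6PC2 and LDHA varied together (Pearson's r of log2 CPM 0.95, n = 29). After removal of the mean of each batch and medium r was -0.55. SLC2A1 and LDHA kept theirs (0.80 and 0.76). In WT batch 1 replicate 4, SLC2A1 (73.4 CPM) and LDHA (102) were the lowest of all batch 1 libraries while G6PC2 (406) was the highest WT library there. Closest to G6PC2 across libraries were AGO1 (0.984), CACNG5 (0.981) and TBC1D2B (0.98), and closest to LDHA were RCOR2 (0.967), CABP7 (0.961) and TENT4A (0.956). LDHB had ALDH7A1 (0.918) closest, SLC16A1 had SBNO1 (0.851), SLC2A1 had DGCR5 (0.85), HK2 had IRX2-DT (0.844), HK1 had NGDN (0.814) and SLC2A2 had CCSER1 (0.757), each among at least 12301 entries.

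Other measures moved with the same batches and media. The share of mitochondrial counts was 3.60 to 5.05% in batch 3, 3.99 to 5.41% in batch 2 and 5.77 to 8.28% in batch 1, where G6PC2 and LDHA were highest. In batch 2 it was 4.89 to 5.41% in MUT, 3.99 to 4.05% in WT and 4.80 to 5.25% in EV. The summed level of 3 delta-cell markers was 143 to 222 CPM in batch 3, 170 to 266 in batch 2 and 29.5 to 41.6 in batch 1, and that of 4 alpha-cell markers 1500 to 1680, 1270 to 1540 and 723 to 927 CPM, with glucagon (GCG) at most at 1.82 CPM. The 11 beta-cell markers summed to 22400 to 30300 CPM in batch 3, 19700 to 25900 in batch 2 and 19600 to 24000 in batch 1, and in batch 2 to 19700 to 20800 in MUT, 24400 to 25400 in WT and 23700 to 25900 in EV. In batch 2 the summed level of 3 leukocyte markers was 36.8 to 37.8 CPM in MUT, 58.8 to 62.4 in WT and 126 to 134 in EV, of which CD68 alone was above 1 CPM in the median library, while PTPRC and CD3E did not exceed 0.135 CPM in any library. That of 6 fibroblast markers was 5.69 to 6.31 CPM in MUT, 5.36 to 6.67 in WT and 2.03 to 2.55 in EV, with COL1A1 alone above 1 CPM and LUM at 0 in 28 of 29 libraries. That of 5 ductal markers was 38.4 to 43.6 CPM in MUT, 54.9 to 61.1 in WT and 53.7 to 56.4 in EV, with KRT19 and MUC1 above 1 CPM. The part of these in the results was not tested. In bulk RNA, fewer cells of a kind and less RNA per cell cannot be told apart.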

How the data were processed

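Polyadenylated RNA of 29 EndoC-βH1 libraries was sequenced (stranded mRNA kit, per the labels' protocols). The table that the authors deposited holds estimated counts for each Ensembl gene, not normalized, from fastp trimming and kallisto, per the submitters' processing notes. Versions, annotation, strand setting and build: not given in the sources used here. Since kallisto divides reads by estimation, values of near-identical genes (paralogs, pseudogenes) are uncertain.

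Groups and batches came from the labels. In batch 1, 1 EV library is numbered unlike its neighbours and was used as labelled. The estimated counts were rounded, low entries removed with filterByExpr (21259 of 66025 left) and libraries scaled by TMM. Tests used edgeR's robust quasi-likelihood F test (edgeR 4.0.16, limma 3.58.1, R 4.3.3), two-sided, with Benjamini-Hochberg adjustment over all entries tested. Pooled models held medium and batch. Fits of a single batch repeated filter and TMM. The SE of a log2 fold change is its size over the square root of F. Scripts were tested on simulated data. Correlations used log2(CPM + 0.5).

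The 9 genes and the 8 lists (138 genes) were chosen with earlier results of these data known. Named were the 9 genes, the up to 3 genes of smallest p per list and comparison, and the 3 genes closest in pattern, and 1 further gene of that rule is not reported here. Coordinates come from GENCODE 29 (GRCh38) by Ensembl identifier and promoters from RefSeq (GRCh38.p14), and the authors' build may differ. Alternatives were DESeq2 1.42.0, its size factors, total library size, other low-count filters, limma voom with quality weights or with an estimated correlation, other models, summed profiles, and leaving out each batch or library. A fit without robust estimation was chosen after seeing the data.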

Additional observations from a re-analysis of the deposited data

Results flagged for a closer look

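In 63 sets of 4 to 10 libraries (a medium, a batch, or a medium within a batch, for the 9 genes), 4 held a library far from the rest by Dixon's test, a share that chance gives at about 1 in 20. HK2 reached 0.118 CPM in WT batch 2 replicate 1, where the next library of that batch had 0.058 CPM, a matter of a few counts. SLC2A1 reached 117 CPM in MUT batch 1 replicate 1, with 95.8 CPM in the next MUT library of that batch. LDHB reached 232 CPM in WT batch 3 replicate 1, with 185 CPM next, and this stood out both among all WT libraries and within batch 3.

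For 9 pairs of gene and media the difference between media itself differed between batches (edgeR interaction test, adjusted p). For MUT against EV these were TXNIP (5.2e-05), LDHB (0.0043) and SLC2A2 (0.0088), 3 of 8 tested genes beside 44.0% of all entries. For MUT against WT they were TXNIP (8.4e-06), SLC2A2 (0.00024), G6PC2 (0.001) and LDHB (0.033), 4 of 8 beside 28.4%. For WT against EV they were G6PC2 (0.00033) and LDHB (0.034), 2 of 8 beside 24.1%. Such differences were thus common in the whole table.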

How the results depend on the processing

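None of 117 fold changes of the 9 genes reversed a called direction under any alternative, and 93 kept their side of the threshold throughout. Of 33 called, 8 were lost under at least 1 alternative, and 16 uncalled ones were gained. The cause was not tested except where fewer libraries or entries entered.

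Among counts of called genes that moved, MUT against WT (1) had 0 with no low-count filter, no batch term, 2 groups only, summed profiles, voom with correlated libraries (correlation 0.43) or without batch 2, 2 with DESeq2 and 3 without batch 3. WT against EV (0) had 1 with DESeq2 or 2 groups only and 2 without batch 3. Batch 3 against batch 2 (6) had 3 with summed profiles. Without batch 2 the medium by batch counts were 1 for the joint test (4), and 0 for MUT against EV (3), MUT against WT (4) and WT against EV (2), the last of which had 1 with 2 groups only. Within batch 1 (0 each), DESeq2 gave 2 for MUT against EV, 1 for MUT against WT and 1 for WT against EV, and no low-count filter gave 1 in each. Within batch 3, no low-count filter gave 1 for MUT against EV (0) and 2 for MUT against WT (1). The last had 0 without robust estimation or with total library size and 3 with DESeq2.

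Replicate numbers did not pair the libraries: same-numbered libraries had correlations of -0.067 to 0.142 between their deviations (28 pairs, 3 over 0.1, median 0.001). With a replicate block the counts were 0 for pooled MUT against WT, 1 for WT against EV in batch 1 and 1 for MUT against EV in batch 3.

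Without each library in turn, the counts were 0 to 0 for MUT against EV, 0 to 2 for MUT against WT and 0 to 1 for WT against EV. For batch 3 against 1, 3 against 2 and 2 against 1 they were 6 to 7, 6 to 6 and 6 to 8. The upper ends 7 and 8 include HK2, which passed the filter in those fits through batch 1, where it is high. Both ranges against batch 1 also include HK1, which passed through batch 2, where it is high. For medium by batch they were 4 to 5 in the joint test and 3 to 4, 3 to 5 and 1 to 2 in the pairs. Within batch 1 they were 0 to 1, 0 to 2 and 0 to 0, within batch 2 4 to 5, 4 to 4 and 4 to 4, and within batch 3 0 to 2, 0 to 2 and 0 to 0. Depth limits HK1 and HK2, at 201 and 117 counts in all.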
